A study of Mus musculus with 11 samples.

Results

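The genes described here encode the kainate receptor subunits (Grik1, Grik2, Grik3, Grik4 and Grik5), the delta receptor subunit GluD1 (Grid1) and delphilin, an intracellular scaffold of delta receptors (Grid2ip). They were taken by gene symbol, 7 of the 17118 genes in the table, and each matched 1 row. All 7 passed the filter on low counts, and none was listed at 0 in any library. Hippocampal RNA was sequenced from female C57/BL6 mice (genotype label C57/BL6J), aged 12 weeks when treatment began, that received weekly intraperitoneal injections for 8 weeks. In the AC-T group, 5 mice (501, 502, 503, 600 and 602), these were 4 of doxorubicin at 2 mg/kg with cyclophosphamide at 50 mg/kg, and then 4 of paclitaxel at 5 mg/kg. The control group, 6 mice (201, 202, 203, 300, 301 and 302), received 0.9% saline. Samples carry a 1-month label, tissue came from a 0.2 mm punch of a frozen coronal slice, and each library is 1 mouse. AC-T is a breast cancer chemotherapy of an anthracycline, an alkylating agent and a microtubule stabiliser. The series title names gut, microbiome and cognition as its subjects.

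Kainate receptors are glutamate-gated cation channels assembled as tetramers. GluK1, GluK2 and GluK3 can form channels by themselves, whereas the high-affinity subunits GluK4 and GluK5 reach the surface together with one of them. In the hippocampus they act at mossy fibre synapses onto CA3 neurons, before and after the synapse, and on interneurons. Delta receptors belong to the same family by sequence, but they act mainly as synaptic organisers that bind cerebellins, which in turn bind neurexins on the presynaptic side. Delphilin is a PDZ and formin homology protein known as a delta receptor scaffold at synapses of cerebellar Purkinje cells.

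Kainate receptor transcripts are also substrates of RNA editing. Adenosine deaminases of the ADAR family change an A in the glutamine codon of the pore loop of Grik1 and Grik2 transcripts to inosine, which is read as arginine, and this alters the calcium permeability of the channel. The stretch around that codon is shown because the ADAR genes are among the partner genes described further on. The sequences are sense-strand coding bases from GENCODE M21 transcripts (build GRCm38) with 45 bases before the codon and 4 after it, and each stretch lies within 1 exon. Capitals mark the edited codon of Grik1 and Grik2 and the codon at the matching place of the other genes. That place was sought by a short protein motif that includes the glutamine, so a glutamine codon there was fixed by the search.
Grik1: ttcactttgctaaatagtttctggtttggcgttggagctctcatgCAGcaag
Grik2: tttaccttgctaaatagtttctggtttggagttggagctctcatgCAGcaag
Grik3: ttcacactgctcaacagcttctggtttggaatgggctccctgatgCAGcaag
Grik4: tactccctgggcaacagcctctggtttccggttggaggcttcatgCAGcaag
Grik5: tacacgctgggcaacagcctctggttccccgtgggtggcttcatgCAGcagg
Grid1: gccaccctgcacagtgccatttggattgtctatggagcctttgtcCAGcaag

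In GRCm38 coordinates, the Grik1 stretch lies at chr16:87940538-87940589 (minus strand, exon 13 of 18) and the Grik2 stretch at chr10:49244325-49244376 (minus strand, exon 12 of 16). Those of Grik3 and Grid1 lie on the plus strand at chr4:125691162-125691213 (exon 12 of 16) and chr14:35450345-35450396 (exon 11 of 16). Those of Grik4 and Grik5 lie on the minus strand at chr9:42547619-42547670 (exon 14 of 19) and chr7:25022493-25022544 (exon 15 of 20). Of the 52 bases, Grik1 shared 49 with Grik2 and Grik3 shared 40. The high-affinity pair was further away, with 36 bases shared for Grik4 and 32 for Grik5, and Grid1 shared 30. The codon itself was CAG in all 6 genes. The deposited table counts reads per gene, so the edited share of these transcripts was not measured.

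The libraries held 23.4 to 32.1 M counts each, and the 7 genes had between 85 and 5710 counts per library. Markers of the labelled tissue were present: 10 of 10 dentate granule neuron markers, 11 of 11 CA2 and CA3 markers and 9 of 10 CA1 markers listed were tested. Thalamic markers, a list chosen with earlier results of these data known, differed between the groups. After AC-T 14 of 17 were lower and 0 higher, beside 3.58% and 4.89% of all tested genes. Their summed level was 603 to 898 CPM (normalised read counts, scaled to a common library size) in AC-T libraries, against 1153 to 1905 CPM in saline libraries. Of 10 astrocyte markers 3 were lower (Agt, Aqp4 and Slc4a4) and 0 higher, beside the same shares of all genes. Their sums overlapped, at 3671 to 5050.0 CPM after AC-T and 3716 to 4738 CPM after saline. The part of astrocyte markers in the falls described here was not tested. Saline 202 stood apart in cerebellar markers: Cbln3, Gabra6 and Pcp2, genes of cerebellar granule and Purkinje neurons, had 2366, 975 and 969 counts there and were listed at 0 in the other 10 libraries. In saline 300, Xist (the X-inactivation RNA of female cells) was listed at 0, whereas the remaining 10 libraries had 13057 to 22963 counts of it. The first digit of the mouse number, whose meaning the labels do not give, gives a series for each mouse, 5 or 6 after AC-T and 2 or 3 after saline. No series holds both treatments, so series and treatment cannot be told apart within a series.

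To ask which of these genes differed in the hippocampus after chemotherapy, AC-T and saline were compared in a fit of all 15353 tested genes. Grik3 rose 1.31-fold, and Grid2ip fell to 0.374 of its saline level. The other 5 genes did not pass the threshold, an adjusted p under 0.05 in edgeR's quasi-likelihood test. Of all tested genes 8.47% passed, 4.89% as higher and 3.58% as lower. Grik3 and Grid2ip, 2 of the 7, were also free of overlap between the groups, as were 7.52% of all tested genes. Without saline 202 the counts stayed at 1 higher and 1 lower, without saline 300 they were 1 and 2 with Grik2 added, and without both they were 0 and 2. The median log2 fold change was 0.06 over the 7 genes and -0.003 over all genes tested.

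**Figure D1:**
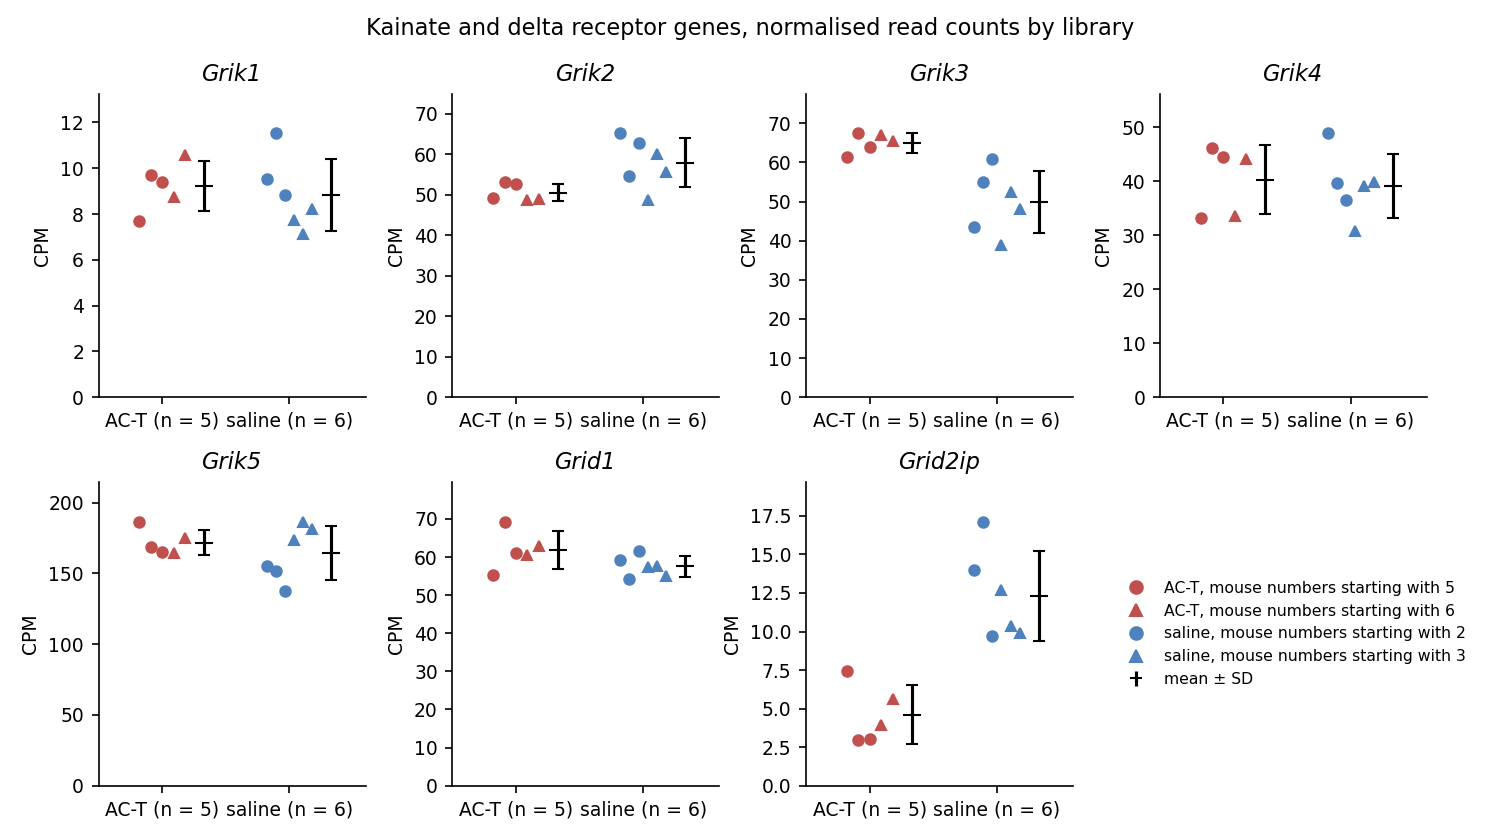
Normalised read counts (CPM, linear axis from 0) of each gene in every library, AC-T left and saline right; circles and triangles are the series of mouse numbers, and the bar is the mean ± SD. Grik3 and Grid2ip are the 2 genes whose groups do not overlap, and the saline values of Grik5 split by series.

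Levels between genes were compared as CPM per kilobase of annotated transcript. By the median transcript of each gene, Grik5 was highest, with 195 ± 10.3 CPM per kilobase after AC-T and 187 ± 21.9 after saline (SD, n = 5 and 6). Grid1 followed (74.9 ± 6.10 and 69.8 ± 3.23), then Grik2 (19.4 ± 0.842 and 22.2 ± 2.32), Grik4 (8.67 ± 1.36 and 8.42 ± 1.26) and Grik3 (7.25 ± 0.279 and 5.55 ± 0.887). Each of these stood above the next in all 11 libraries, except that Grik4 was above Grik3 in 10. Grik1 (2.86 ± 0.335 and 2.74 ± 0.488) and Grid2ip (1.33 ± 0.553 and 3.55 ± 0.844) were lowest. Grik1 was above Grid2ip in 5 of 5 AC-T libraries and in 0 of 6 saline libraries.

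The order in the middle depends on the length used. The median transcript of Grik5 is 880 bases and that of Grid1 825 bases, because short transcripts are annotated, against 4061 and 5720 bases for the longest. By the longest transcript Grik5 and Grid1 kept the highest places, with 42.3 ± 2.23 and 10.8 ± 0.880 CPM per kilobase after AC-T, against 40.5 ± 4.74 and 10.1 ± 0.466 after saline. Grik4 (6.85 ± 1.08 and 6.65 ± 0.999), Grik3 (7.25 ± 0.279 and 5.55 ± 0.887) and Grik2 (5.36 ± 0.233 and 6.14 ± 0.642) then lay close together, and Grik4 was above Grik3 in 8 of the 11 libraries and Grik3 above Grik2 in 7.

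Among the subunits that form channels by themselves, Grik3 encodes GluK3, a subunit of low glutamate sensitivity found at presynaptic sites of mossy fibres. Grik3 stood at 61.3, 67.5, 64.0, 67.0 and 65.4 CPM in AC-T 501, 502, 503, 600 and 602, against 43.5, 54.9, 60.8, 38.9, 52.5 and 48.2 CPM in saline 201, 202, 203, 300, 301 and 302. Every AC-T library lay above every saline library, though AC-T 501 and saline 203 were only 61.3 and 60.8 CPM. The AC-T values lay closer together, with a coefficient of variation of 3.85% against 15.97% for saline. Grik3 averaged 65.0 ± 2.50 CPM after AC-T and 49.8 ± 7.96 CPM after saline (SD, n = 5 and 6), a log2 fold change of 0.38 ± 0.10 (SE; 95% interval 0.17 to 0.60; adjusted p = 0.0336). The call was lost without AC-T 502 (adjusted p = 0.0839), AC-T 503 (0.0550), AC-T 600 (0.0691), AC-T 602 (0.0726), saline 201 (0.0563), saline 301 (0.0504) or saline 302 (0.0552). It was also lost with library totals as the only scaling (0.0566), with series as a random effect (0.114) and with saline 202 and 300 both left out (0.0787), at log2 fold changes of 0.36, 0.40 and 0.33. Markers of some other neurons moved in the same direction, beside 4.89% higher and 3.58% lower among all genes. Neocortical markers (5 of 10 higher, 1 lower) summed to 298 to 336 CPM after AC-T and 197 to 276 CPM after saline. CA1 markers (1 of 9 higher, 0 lower) summed to 514 to 672 and 136 to 426 CPM. Interneuron markers (5 of 12 higher, 1 lower) summed to 895 to 1083 CPM after AC-T and 778 to 1049 CPM after saline. Dentate granule markers had 0 of 10 higher and 0 lower, with a median log2 fold change of -0.16. For CA2 and CA3 markers 0 of 11 were higher and 1 lower, with a median of -0.06. The part of these markers in the Grik3 result was not tested.

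Grik2 encodes GluK2, the main postsynaptic kainate receptor subunit of CA3 neurons. Grik2 had 49.3, 53.3, 52.6, 48.6 and 49.0 CPM in the AC-T libraries in the order above, against 65.3, 54.7, 62.8, 48.7, 60.2 and 55.7 CPM in the saline libraries. Saline 300, at 48.7 CPM, lay inside the AC-T range, and the other 5 saline libraries lay above it. The log2 fold change was -0.20 ± 0.07 (SE; 95% interval -0.35 to -0.04; adjusted p = 0.105), so Grik2 did not pass. Without saline 300, the library with Xist at 0, it passed at -0.25 (adjusted p = 0.0292), and it passed with DESeq2 (-0.20; adjusted p = 0.0255). Thalamic markers were lower in the same AC-T libraries, and with their score as a covariate the Grik2 value was -0.03. Because that score separates the groups as treatment does, the part of these markers in the Grik2 value was not tested.

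Grik1 encodes GluK1, the kainate receptor subunit of many hippocampal interneurons. It ranged over 7.70 to 10.6 CPM after AC-T and 7.11 to 11.5 CPM after saline, so the groups overlapped throughout, and its log2 fold change was 0.07 ± 0.12 (SE; 95% interval -0.20 to 0.33; adjusted p = 0.798). Within saline, series 3 mice had 7.11 to 8.21 CPM and series 2 mice 8.82 to 11.5 CPM, a log2 difference of -0.37 ± 0.13 (SE; edgeR adjusted p = 0.159).

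The high-affinity subunit genes had intervals around 0. Grik4 encodes GluK4, a subunit of CA3 and dentate neurons. It ranged over 33.2 to 46.1 CPM after AC-T and 30.8 to 48.9 CPM after saline (log2 fold change 0.04 ± 0.12 SE; 95% interval -0.22 to 0.31; adjusted p = 0.873). AC-T 501 and 600, at 33.2 and 33.6 CPM, lay below the other 3 AC-T libraries at 44.1 to 46.1 CPM. Grik5 encodes GluK5, the broadly expressed high-affinity partner. It ranged over 164 to 186 CPM after AC-T and 137 to 187 CPM after saline (log2 fold change 0.06 ± 0.08 SE; 95% interval -0.11 to 0.23; adjusted p = 0.667).

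The saline values of Grik5 split by series. Saline series 3 had 173, 187 and 182 CPM in mice 300, 301 and 302, against 155, 152 and 137 CPM in mice 201, 202 and 203 of series 2. These sets did not overlap, and the difference was 0.29 ± 0.06 (log2, SE; edgeR adjusted p = 0.0695, and 0.000674 with DESeq2), in a comparison where 1.03% of genes passed in edgeR. DESeq2 called many more genes than edgeR between the saline series, and its count is given further on. Against saline series 2, Grik5 rose by 0.21 ± 0.06 after AC-T (adjusted p = 0.0416, where 11.7% of genes passed). Against saline series 3, it stood at -0.07 ± 0.06 (adjusted p = 0.457, where 6.73% of genes passed). These comparisons share the AC-T libraries. The AC-T series did not differ for Grik5 beyond the error (series 6 minus series 5, -0.03 ± 0.07; adjusted p = 0.909), in a comparison where 0.117% of genes passed.

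For the other genes the same 4-mean fit gave directions as follows. Grik3 was higher against both saline series, by 0.29 ± 0.12 against series 2 (adjusted p = 0.138, not past the threshold) and by 0.48 ± 0.12 against series 3 (adjusted p = 0.0419). Grid2ip fell against both, by 1.57 ± 0.30 against series 2 (adjusted p = 0.0111) and by 1.26 ± 0.30 against series 3 (adjusted p = 0.0413) on the log2 scale. Grik2 fell against series 2, by 0.27 ± 0.08 (adjusted p = 0.0475), and stood at -0.12 ± 0.08 against series 3 (adjusted p = 0.349). Grik1 had opposite signs, -0.11 ± 0.11 against series 2 and 0.26 ± 0.12 against series 3 (adjusted p = 0.593 and 0.183).

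**Figure D2:**
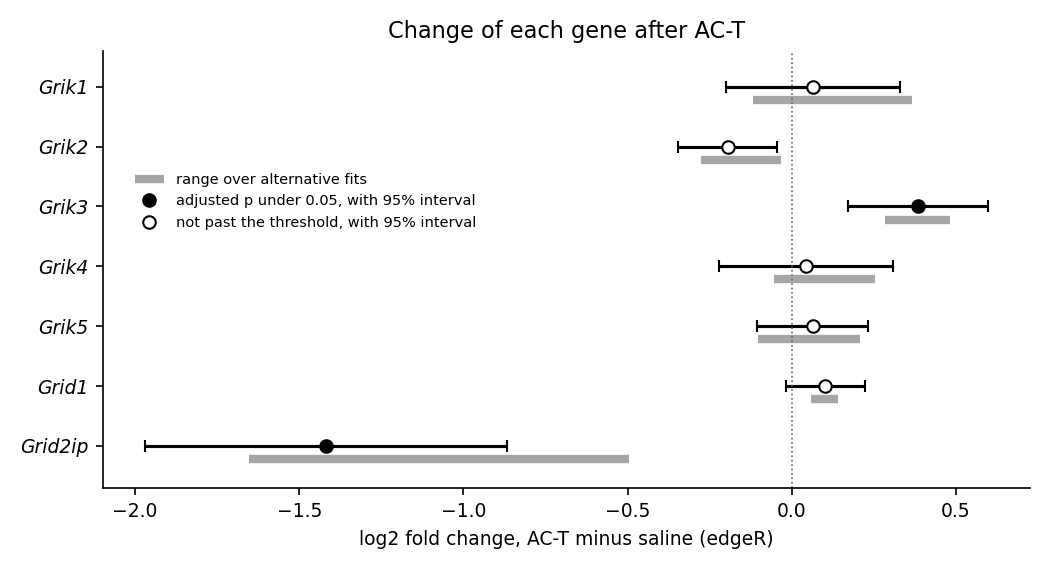
Log2 fold change of each gene (AC-T minus saline) with its 95% interval from edgeR; filled points passed an adjusted p of 0.05, and grey bars give the range over the alternative fits. Grid2ip is the furthest from 0, at -1.42, and its grey bar reaches -0.50 at its end nearest 0.

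Shares within the kainate receptor family do not depend on the scaling between libraries. Each gene was therefore expressed as a percentage of the summed CPM of Grik1 to Grik5 in its library and compared by an exact permutation test over libraries (2-sided, smallest possible p 0.00216, adjusted over the 5 genes). Grik2 took 15.0 ± 0.591% of these reads after AC-T and 18.1 ± 1.82% after saline (SD, n = 5 and 6), and the share fell (exact permutation p = 0.00649, adjusted p = 0.0325). The AC-T shares, 14.2% to 15.7%, all lay below the saline shares, 16.3% to 20.5%. Grik3 took 19.3 ± 0.967% and 15.6 ± 2.63% (exact permutation p = 0.0281, adjusted p = 0.0703), and saline 203, at 19.8%, lay inside the AC-T range. Grik5 took 51.0 ± 2.50% and 51.3 ± 4.91%, Grik4 11.9 ± 1.68% and 12.2 ± 1.66%, and Grik1 2.74 ± 0.287% and 2.77 ± 0.555%, with exact permutation p values of 0.920, 0.779 and 0.900. The Grik2 share did not pass without AC-T 501 (adjusted p = 0.0714), AC-T 600 (0.0714) or AC-T 602 (0.0952), nor per kilobase of transcript (0.141), and the Grik3 share passed without saline 203 (0.0198). A share of reads also moves when another gene of the family moves.

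**Figure D3:**
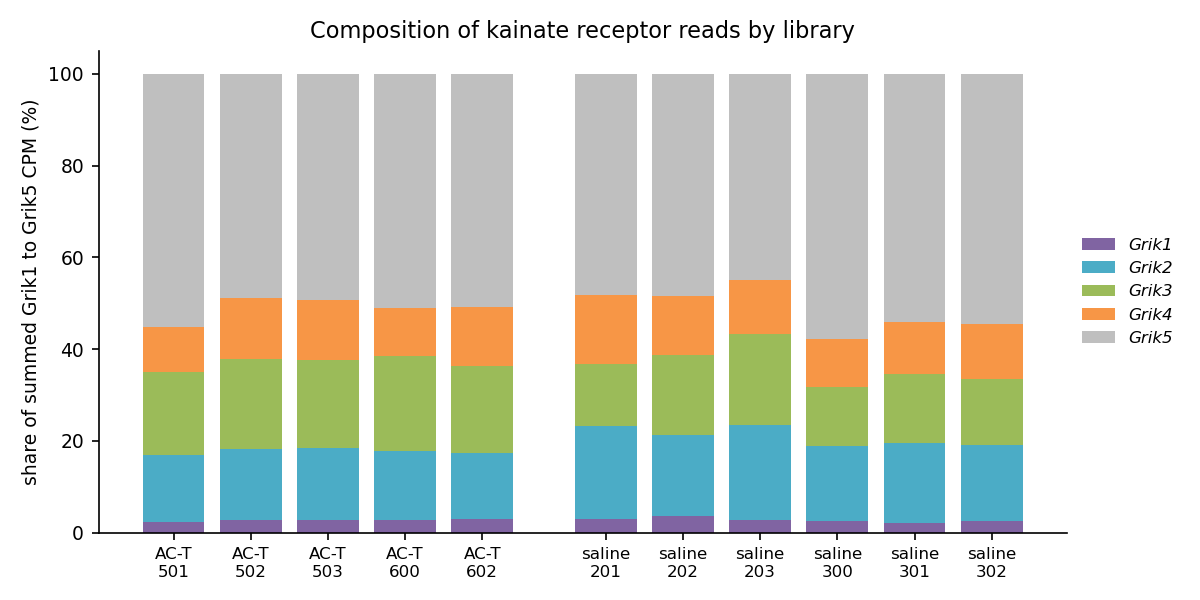
Share of each kainate receptor gene in the summed CPM of Grik1 to Grik5 (percent, stacked to 100), 1 bar per library, AC-T libraries left and saline libraries right. The Grik2 band is 14.2% to 15.7% in AC-T libraries and 16.3% to 20.5% in saline libraries.

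Among the delta receptor genes, Grid1 encodes GluD1, which organises excitatory and inhibitory synapses in the forebrain. Grid1 ranged over 55.4 to 69.3 CPM after AC-T and 54.3 to 61.6 CPM after saline. AC-T 502 was the highest library, and the groups overlapped. The log2 fold change was 0.10 ± 0.06 (SE; 95% interval -0.02 to 0.22; adjusted p = 0.281), and no alternative fit brought Grid1 past the threshold.

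Grid2ip had 7.41, 2.94, 3.03, 3.95 and 5.63 CPM in AC-T 501, 502, 503, 600 and 602, against 13.99, 17.1, 9.70, 12.7, 10.4 and 9.90 CPM in saline 201, 202, 203, 300, 301 and 302. Every AC-T library lay below every saline library, with the gap between AC-T 501 and saline 203. In reads these values were 205, 85, 91, 120 and 180 counts after AC-T and 331, 444, 299, 352, 300 and 311 counts after saline. Grid2ip averaged 4.59 ± 1.91 CPM after AC-T and 12.3 ± 2.92 CPM after saline (SD, n = 5 and 6), a log2 fold change of -1.42 ± 0.25 (SE; 95% interval -1.97 to -0.87; adjusted p = 0.00900). The fall passed with each of the 11 libraries left out in turn (adjusted p from 0.00458 to 0.0265), but not without saline series 2 (-1.26; adjusted p = 0.0554). Without saline 202, the library with cerebellar markers and the highest Grid2ip value, it was -1.30 (adjusted p = 0.0176), and with saline 202 and 300 both left out it was -1.26 (adjusted p = 0.0406).

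Thalamic markers were lower in the same AC-T libraries as Grid2ip. Their score, the mean log2 CPM of 17 genes, was 5.24, 4.62, 4.81, 4.49 and 5.04 in AC-T 501, 502, 503, 600 and 602, against 6.42, 6.14, 6.16, 5.67, 5.70 and 5.54 in saline 201, 202, 203, 300, 301 and 302. The groups did not overlap in score either. Within the groups the orders matched only in part. AC-T 501 and 602 had the most Grid2ip and the highest scores among AC-T libraries. AC-T 600 had the lowest score and more Grid2ip than AC-T 502 and 503. However, the score of AC-T 600 includes Gbx2, which was listed at 0 in that library alone. By the summed CPM of the same markers AC-T 502 was lowest, at 603, with 642 in AC-T 600 and 663 in AC-T 503. Among saline libraries, 203 had the least Grid2ip with a score of 6.16, and 300 had 12.7 CPM with a score of 5.67. With this score as a covariate the Grid2ip log2 fold change was -0.50 ± 0.39 (SE; adjusted p = 0.735), and that of Grik3 was 0.43 ± 0.22 (adjusted p = 0.592), in a fit where 1 gene of the table passed and 1349 had an unadjusted p under 0.05. The part of the thalamic markers in these results was not tested further, and treatment and score separate the libraries in the same way. In tissue RNA, fewer cells of a type and less RNA per cell cannot be told apart.

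**Figure D4:**
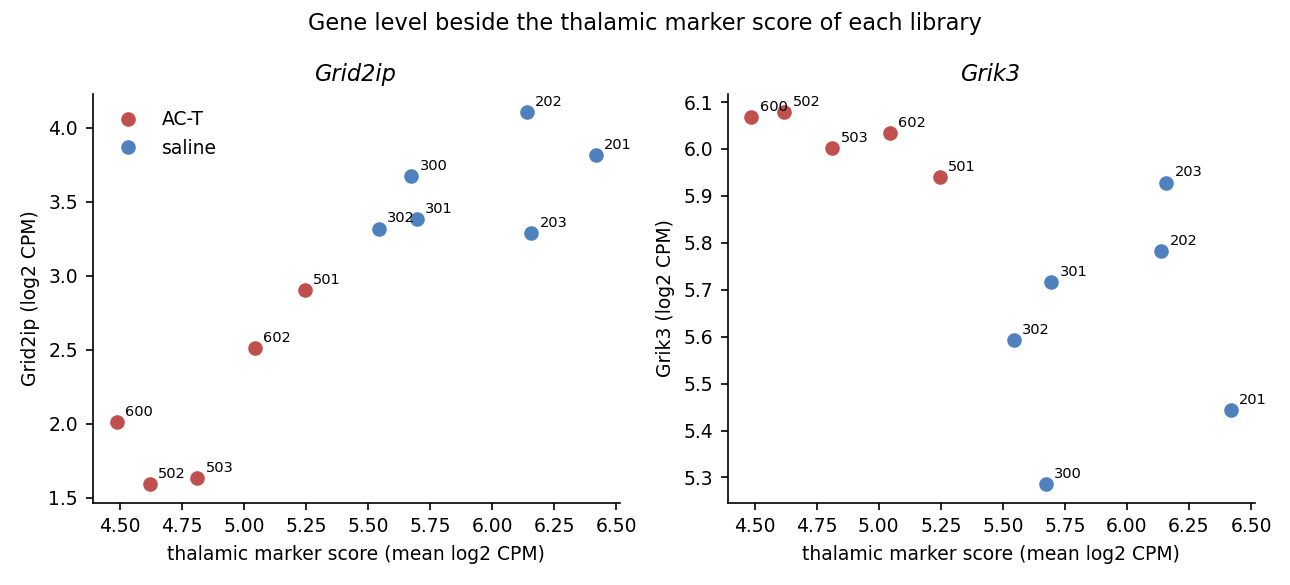
Level of Grid2ip (left) and Grik3 (right), in log2 CPM, against the thalamic marker score of each library, labelled by mouse number. AC-T scores run from 4.49 to 5.24 and saline scores from 5.54 to 6.42, so the groups do not overlap on the horizontal axis; the vertical axes do not start at 0.

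The genes most like each changed gene in pattern were named by Pearson's r of log2 CPM over the 11 libraries, as a description. For Grid2ip these were Lef1, a Wnt pathway transcription factor that is also among the thalamic markers (r = 0.96), Cacng5, an auxiliary subunit of AMPA receptors (0.96), and Ncapd2, a condensin subunit (0.96). Lef1 and Cacng5 fell after AC-T (log2 fold changes -0.86 and -0.78; adjusted p = 0.00248 and 0.00555), while Ncapd2 stood at -0.18 (adjusted p = 0.0607). With the group means taken off, the nearest were Ncapd2 (0.93), Kank3 (0.93) and Il18bp (0.88). For Grik3 the nearest were Vopp1 (0.97), Ssbp2 (0.97) and Ctgf, a matricellular protein gene that is also among the neocortical markers (0.96), and with the group means taken off Ssbp2 (0.96), Rhobtb2 (0.94) and Vopp1 (0.93). Vopp1 rose (0.33; adjusted p = 0.0210), and Ssbp2 and Ctgf stood at 0.22 and 1.24 without passing (adjusted p = 0.0994 and 0.0734).

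Of 13 auxiliary subunits and binding partners of kainate receptors, 3 rose and 0 fell, beside 4.89% and 3.58% of all genes, with a median log2 fold change of 0.18 against -0.003 over all genes. With series as a random effect 1 passed, Neto2, and without AC-T series 6 there were 0. Neto2, an auxiliary subunit that changes kainate receptor gating, had 39.2, 39.7, 38.7, 44.3 and 44.0 CPM in the AC-T libraries in mouse order, against 33.9, 31.1, 30.3, 36.7, 33.6 and 35.8 CPM in the saline libraries. The groups did not overlap, and Neto2 rose by 0.30 ± 0.06 (log2, SE; adjusted p = 0.0154), also with any 1 library left out (highest adjusted p = 0.0416). Neto2 did not pass without AC-T series 6 (0.0879) or saline series 2 (0.0868), nor with the thalamic score as a covariate (0.13; adjusted p = 0.765). Dlg1 and Dlg3 encode the PDZ scaffolds SAP97 and SAP102, and rose by 0.27 ± 0.06 and 0.28 ± 0.08 (adjusted p = 0.0235 and 0.0480). Dlg1 lost its call when AC-T 502 (0.0555), AC-T 602 (0.0524), saline 202 (0.0502) or saline 300 (0.0576) was left out. Dlg3 kept it only without AC-T 503 or saline 201, among single libraries left out, and lost it with each other scaling of edgeR. With series as a random effect neither passed (adjusted p = 0.105 for Dlg1 and 0.167 for Dlg3). Neither passed with the thalamic score as a covariate (adjusted p = 0.647 for Dlg1 and 0.726 for Dlg3). Only 1 gene of the whole table passed in that fit, and score and treatment separate the libraries in the same way. The part of the thalamic markers in these rises was not tested. Without saline 202 the list had 1 gene higher, Neto2, and likewise without saline 300.

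Neto1, the other auxiliary subunit and a partner of GluK2 at mossy fibre synapses, had 54.2 to 80.5 CPM after AC-T and 30.9 to 52.8 CPM after saline. The groups did not overlap, but the log2 fold change of 0.49 ± 0.14 (SE) did not pass (adjusted p = 0.0544, and 0.00509 with DESeq2). C1ql2, a secreted protein of dentate granule neurons that gathers kainate receptors at mossy fibre synapses, stood at -0.43 ± 0.19 (adjusted p = 0.173).

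Of the 13 genes listed as delta receptors, their ligands and their cytoplasmic partners, 12 were tested, 1 fell and 0 rose, beside 3.58% and 4.89% of all genes, with a median of -0.03. Ptpn4, a tyrosine phosphatase that binds delta receptors, fell to 0.691 of saline, with 143, 112, 122, 103 and 122 CPM in the AC-T libraries, against 205, 169, 202, 150, 154 and 165 CPM in the saline libraries. The groups did not overlap (log2 fold change -0.53 ± 0.10 SE; adjusted p = 0.0129, and at most 0.0388 with any 1 library left out). Ptpn4 did not pass without AC-T series 5 (0.0630), AC-T series 6 (0.0689) or saline series 2 (0.0668). With the thalamic score as a covariate the value was 0.006, nominally a change of sign (adjusted p = 0.992). In that fit 1 gene of the table passed, and the score parts the groups just as treatment does. Whether thalamic markers had a part in the Ptpn4 fall was not tested.

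Cbln1, a cerebellin that links delta receptors to neurexins, had 59.6 CPM in saline 202, the library with cerebellar markers, 3.54 to 6.92 CPM in the AC-T libraries and 3.09 to 18.0 CPM in the other saline libraries. Its log2 fold change was -1.84 ± 0.74 (SE; adjusted p = 0.144) and -0.81 without saline 202 (adjusted p = 0.336).

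Of 3 genes of the ADAR family of adenosine deaminases, 2 fell and 0 rose, beside 3.58% and 4.89% of all genes. Adarb1, which encodes ADAR2, an enzyme that edits the codon shown above, had 328, 246, 284, 251 and 288 CPM in the AC-T libraries, against 505, 491, 523, 414, 453 and 439 CPM in the saline libraries. The groups did not overlap, and Adarb1 fell to 0.593 of its saline level (279 ± 33.3 CPM after AC-T and 471 ± 42.2 CPM after saline, SD, n = 5 and 6; log2 fold change -0.75 ± 0.09 SE; adjusted p = 0.00125). Adarb2, a brain homologue with no known editing activity, fell to 0.690 (29.6 ± 3.32 and 42.8 ± 5.46 CPM; adjusted p = 0.00974). Adarb2 did not pass without AC-T series 5 (0.0659), AC-T series 6 (0.0587) or saline series 2 (0.0568), whereas Adarb1 passed without each series (highest adjusted p = 0.0189). Adar, which encodes ADAR1, stood at 174 ± 11.01 and 165 ± 18.6 CPM (log2 fold change 0.07 ± 0.08 SE; adjusted p = 0.624). With the thalamic score as a covariate the values of Adarb1 and Adarb2 were -0.32 and -0.14 (adjusted p = 0.542 and 0.805), and the part of the thalamic markers in these falls was not tested further.

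**Figure D5:**
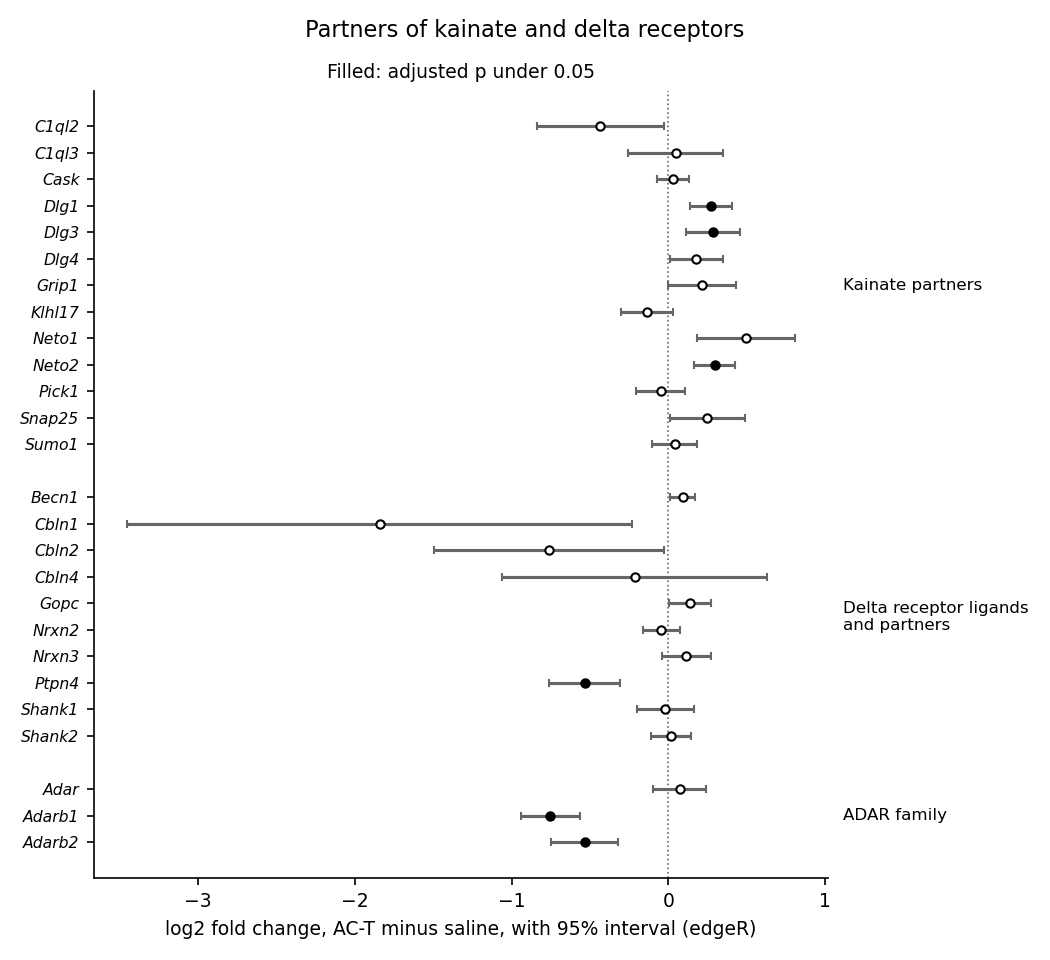
Log2 fold change (AC-T minus saline) with 95% interval for partners of kainate receptors, partners of delta receptors and the ADAR family; filled points passed an adjusted p of 0.05. Neto2, Dlg1 and Dlg3 lie above 0 and Ptpn4, Adarb1 and Adarb2 below it, and Cbln1 has the widest interval.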

How the data were processed

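Per the series text and the submitters' processing notes, stranded mRNA libraries were read on a NextSeq instrument, with Dragen 4.3.6 for base calls, FastQC 0.11.9, Salmon 1.9.0 for quantification and build GRCm39. The series text also names Qiagen's RNA-Seq portal; the step that wrote the table, its annotation release and its strand setting are not given in the sources used here. The values deposited by the authors are expected counts, with a fraction in 13.7% to 14.7% of values per library, and were rounded to whole numbers. Salmon divides reads shared by similar transcripts, so part of a read may be assigned to a related subunit.

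All genes were tested in edgeR 4.0.16 (R 4.3.3; TMM factors, filterByExpr with a minimum count of 10, quasi-likelihood F test, 2-sided, Benjamini-Hochberg over 15353 genes). SE is the absolute log2 fold change over the square root of F, and log2 CPM uses a prior count of 2. Series were compared in a fit with 4 group means. The procedure was tested on simulated counts with known changes. These held no series, marker or single-library differences, so that test does not bear on them. Alternatives were other scalings and filters, DESeq2 1.42.0, limma 3.58.1 (voom), sva 3.50.0, unrounded values, a thalamic score as covariate, series as a random effect, and omission of each library and series; leaving out saline 202 and 300 together was chosen after seeing the data.

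The genes and lists were chosen with earlier results of these data known. All 7 genes are named, as are all partner genes past the threshold; others named were chosen after their values were seen, and some genes counted in the lists are not reported here. Likeness was sought among tested genes whose mean log2 CPM was 1 or more. Transcript lengths and sequences come from GENCODE M21 (GRCm38), an older build than the one in the notes. The series text gives 6 samples to each treatment, and 5 of those after AC-T were analysed here. Each title names a separate mouse.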

Additional observations from a re-analysis of the deposited data

Results flagged for a closer look

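Among 36 sets of values of 1 gene in 1 group, 1 held a library far from the rest by Dixon's test, where chance alone gives about 1 in 20. Dlg1 had 129 CPM in AC-T 503, against 111 to 116 CPM in the other AC-T libraries. These sets did not take in every gene described above. Cbln1 in saline was not flagged, although it had 59.6 CPM in saline 202 against 3.09 to 18.0 CPM in the other saline libraries.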

How the results depend on the processing

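No paired analysis was possible because mouse numbers are not shared between the groups. Over 28 alternatives for each gene, Grid2ip kept its direction in all and its call in 26. Grid2ip fell short of the threshold without saline series 2 (-1.26; adjusted p = 0.0554) and with the thalamic score as covariate (-0.50), and ran from -1.65 to -1.29 with single libraries left out. Grik3 kept its direction in all and its call in 14; it fell short without AC-T series 5 (0.40), AC-T series 6 (0.37) or saline series 3 (0.28), with library totals (0.36), with series as a random effect (0.40), with the thalamic score (0.43) and without saline 202 and 300 together (0.33). With single libraries left out it ran from 0.31 to 0.45. Grik2 passed with DESeq2 (-0.20), without saline series 3 (-0.28) and without saline 202 and 300 together (-0.28), and ran from -0.25 to -0.16 with single libraries left out. The Grik2 share difference was -1.61 percentage points per kilobase of transcript, and -3.46 to -2.62 points with single libraries left out; that of the Grik3 share ran from 3.21 to 4.58. Grik1, Grik4, Grik5 and Grid1 passed in none.

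Of all genes, 1301 passed, 751 higher and 550 lower, and 593 and 663 with upper-quartile factors, which takes the share of higher calls to 47.2% against 57.7%. The count was 2559 with DESeq2, 317 and 409 without AC-T series 5 and 6, 549 without saline series 2, 293 with series as a random effect, 1 with the thalamic score, 417 without saline 202 and 300, and 625 to 1229 with single libraries left out. In the series comparisons DESeq2 called 2904 genes against saline series 2, 2723 against saline series 3, 580 between the AC-T series and 1488 between the saline series. The cause of these differences was not tested. Coding length was not used for levels, since transcript lengths were at hand. Grid2ip had the lowest count among the 7 genes, 85 in AC-T 502, and whether depth limited its result was not tested.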

Other observations

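The ratio of Grik3 reads to Grik2 reads within a library needs no scaling factor; it was chosen after the values were seen and is given as a description. It was 1.24, 1.27, 1.22, 1.38 and 1.34 in AC-T 501, 502, 503, 600 and 602, against 0.666, 1.004, 0.968, 0.799, 0.873 and 0.865 in saline 201, 202, 203, 300, 301 and 302. The groups did not overlap, with means of 1.29 ± 0.0664 after AC-T and 0.862 ± 0.122 after saline (SD, n = 5 and 6).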
